A study of Mus musculus with 19 samples.

Results

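The Indian hedgehog axis of the mouse endometrium was followed through 9 genes: the ligand gene Ihh, the receptor and membrane genes Ptch1, Smo and Hhip, and the effector genes Gli1, Gli2, Gli3, Kif7 and Nr2f2. They were chosen by name, as ligand, receptors and effectors of the pathway, and their gene identifiers were matched to symbols through the GENCODE annotation of GRCm38. All 9 of 9 were found among the 49089 genes of the deposited count table. Endometrial RNA had been sequenced in 19 libraries of 5 groups, and the comparison with estrus asks which genes differ once the uterus approaches implantation. All females were wild-type C57Bl/6 mice. The group CONT held 3 libraries, numbered 1, 2 and 4, of untreated estrous females, which the study's methods describe as virgin animals whose tissue was collected late in the evening around ovulation. The groups INT, SVX, SVX_VAS and VAS held 4 libraries each of females mated to Balb/c males. Their tissue was taken on day 3.5 pc (post coitum). INT females had intact mates and, in the methods, were 8 to 14 weeks old with tissue collected at midday. The methods do not describe the collection of the other 3 mated groups. The labels of the other 3 mated groups name one surgery of the male in the column name and another in the sample title, so these groups carry only their column prefix here, with no surgery attached. Each library came from a pooled sample of endometrium scraped off the muscle layer, how many animals each pool held is not given in the sources used here, and the p-values therefore measure the spread between these pools. Mating and day of collection, and in INT also the hour, differ together between CONT and the mated groups and cannot be told apart.

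Indian hedgehog is a secreted ligand that the uterine epithelium makes under progesterone. It binds the receptor PTCH1 on the stroma beneath, which stops PTCH1 from holding back SMO, and SMO then acts at the primary cilium to turn the GLI transcription factors towards activation. Ptch1, Hhip and Gli1 are themselves targets of GLI, so their transcripts are commonly read as an output of the pathway, and NR2F2 (COUP-TFII) is a stromal transcription factor known to act downstream of the ligand in preparation for implantation.

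The genes lie on 6 chromosomes of GRCm38, all annotated as protein-coding, and the reads counted for each come from its exons. Ihh (ENSMUSG00000006538.10) spans chr1:74945315-74951672 on the minus strand, Ptch1 (ENSMUSG00000021466.11) chr13:63508328-63573598 on the minus strand, Smo (ENSMUSG00000001761.7) chr6:29735503-29761365 on the plus strand and Hhip (ENSMUSG00000064325.4) chr8:79965851-80058006 on the minus strand. Gli1 (ENSMUSG00000025407.6) spans chr10:127329889-127341589 on the minus strand, Gli2 (ENSMUSG00000048402.14) chr1:118834132-119053619 on the minus strand and Gli3 (ENSMUSG00000021318.15) chr13:15463235-15730026 on the plus strand. Kif7 (ENSMUSG00000050382.14) spans chr7:79698098-79715720 and Nr2f2 (ENSMUSG00000030551.14) chr7:70351944-70366735, both on the minus strand. Exons of a gene on the opposite strand overlap 20.3% of the exon length of Kif7, 7.46% of that of Nr2f2, 1.96% of Gli3, 1.93% of Hhip and 1.5% of Gli1. The strand setting of the counting is not given in the sources used here, so reads of these stretches may belong to either gene.

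The promoters of the ligand gene and of the target gene with the largest change are shown because the members moved together between estrus and day 3.5 pc. They are the 250 bases before the annotated start, taken from RefSeq (GRCm38.p6) and read 5′ to 3′ on the minus strand, where both genes lie. Capitals mark the 6-base core CCACCC, or its reverse complement GGGTGG, which lies inside the GLI consensus GACCACCCA. The Ihh window is chr1:74951673-74951922 (72.0% G and C) and the Hhip window is chr8:80058009-80058258 (76.0% G and C).
Ihh: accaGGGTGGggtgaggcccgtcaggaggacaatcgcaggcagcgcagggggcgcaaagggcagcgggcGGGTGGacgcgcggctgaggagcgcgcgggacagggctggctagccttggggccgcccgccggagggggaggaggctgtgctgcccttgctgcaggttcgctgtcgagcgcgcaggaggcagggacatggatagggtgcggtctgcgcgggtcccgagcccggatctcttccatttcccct
Hhip: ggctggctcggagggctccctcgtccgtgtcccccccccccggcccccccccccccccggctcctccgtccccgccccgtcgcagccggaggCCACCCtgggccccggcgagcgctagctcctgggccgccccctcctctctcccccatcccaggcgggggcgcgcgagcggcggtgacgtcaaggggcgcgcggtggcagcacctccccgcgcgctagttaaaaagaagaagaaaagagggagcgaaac

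Of the 9 genes, 8 had an entry in the promoter table, which runs from 250 bases before to 50 bases after the start. Gli1 had none. Searched on both strands, the consensus GACCACCCA was in 0 of these 8 windows and in 0.253% of the 32851 promoters of all genes, and with any base (N) allowed at one position (GACCNCCCA) it was in 0 of 8 and in 0.977%. The core CCACCC, which overlaps both longer motifs, was in 5 of 8 windows, those of Ihh, Smo, Hhip, Gli2 and Gli3, and in 31.5% of all promoters. These are descriptions of letters in a short window and say nothing of binding.

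Every one of the 9 genes was higher in INT, the day 3.5 pc group with intact mates, than at estrus, from 1.56-fold for Smo to 56.6-fold for Hhip. A gene was called where edgeR's quasi-likelihood test gave a Benjamini-Hochberg false discovery rate (FDR) of 0.05 or less over the 17222 genes tested and a logFC (log2 of the fold) at or past the study's limit, a fold of 1.5 in either direction. All 9 genes passed the filter on low counts and all 9 were called higher in INT, against 20.9% of all genes tested that were called higher and 12.7% called lower. With limma-voom and edgeR at the same limits the study reported far fewer genes in both directions. These shares therefore belong to the present fit, and the reason for the gap was not tested. In all 9 every INT library stood above every estrus library, as it did in 31.0% of all genes tested. In INT the logFC was 5.82 for Hhip, 4.84 for Gli1 and 4.52 for Ihh and lay between 0.64 and 2.39 for the other 6, and differences between genes were not tested. Against the same 3 estrus libraries, 9 of 9 were called higher in SVX (23.1% of all genes called higher, 18.5% lower, 35.2% with every library above), 9 of 9 in SVX_VAS (22.2%, 16.5% and 33.5%) and 8 of 9 in VAS (23.3%, 17.3% and 26.7%). The members whose libraries all stood above estrus numbered 9, 9 and 8. Because the 4 comparisons share their control libraries, they are not independent of each other.

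**Figure D1:**
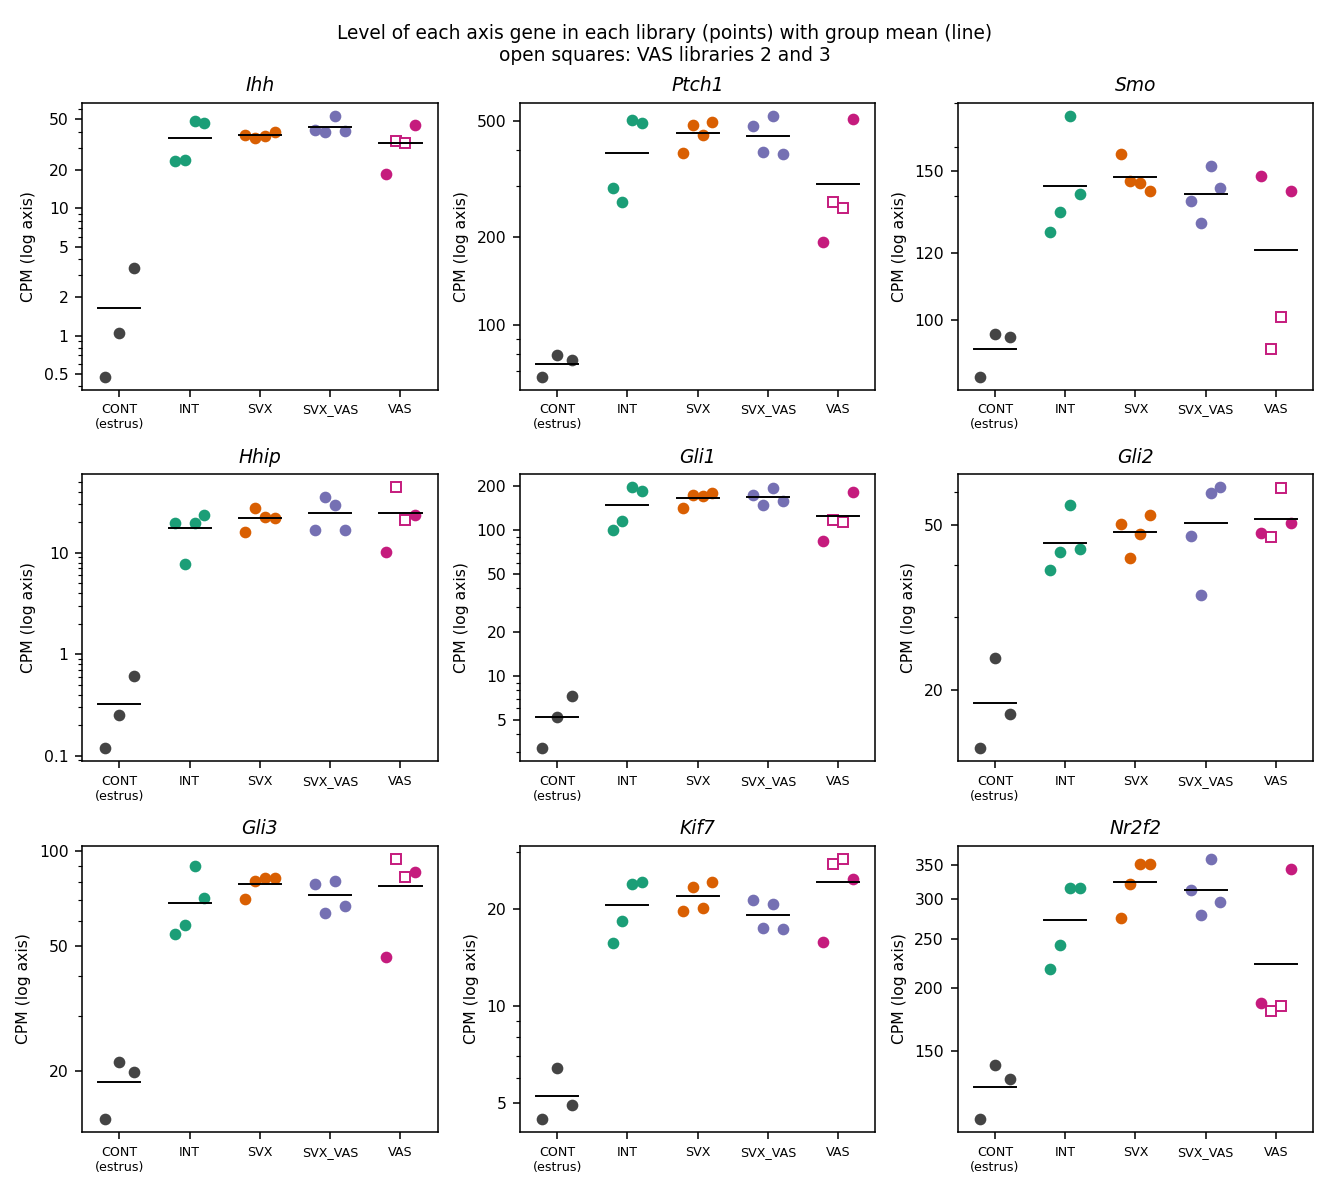
Level of each of the 9 axis genes in each of the 19 libraries, as CPM (log axis), by group. Points are libraries, lines are group means and open squares are VAS libraries 2 and 3. The 3 estrus libraries sit below every mated library in 8 genes, while Smo in VAS library 2 lies among them.

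Ihh encodes the ligand. Its level in the estrus libraries 1, 2 and 4 was 0.476, 1.04 and 3.41 CPM, the reads of the gene scaled to the size of the library. In INT it was 23.6, 24.1, 48.8 and 47.0 CPM, a mean of 35.9 ± 13.9 (SD, n = 4) against 1.64 ± 1.56 (SD, n = 3) at estrus. The INT libraries fell into a lower and a higher pair, and the lowest of them was still far above the highest estrus library. In SVX the level was 38.0, 35.5, 37.2 and 40.0 CPM, in SVX_VAS 41.3, 39.8, 53.2 and 40.8 CPM, and in VAS 18.7, 33.6, 32.7 and 45.5 CPM. The 4 SVX libraries lay closest together. The logFC against estrus was 4.52 in INT (SE 0.51, 95% interval 3.44 to 5.6, FDR 6.72e-06), 4.59 in SVX (FDR 3.42e-06), 4.81 in SVX_VAS (FDR 3.54e-06) and 4.38 in VAS (FDR 5.97e-06). The size of the change rests on few estrus reads, 8, 29 and 45 counts. Without estrus library 4, which held the highest level, the logFC was 5.49 in INT, 5.55 in SVX, 5.77 in SVX_VAS and 5.35 in VAS. The ratio of the summed counts of INT and estrus, scaled for library size, was 25.7 with an exact 95% interval of 20.6 to 32.4, which covers counting error only.

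Ptch1 encodes the receptor that binds the ligand and is also induced by it. It was already well expressed at estrus, at 66.8, 79.0 and 76.1 CPM. It reached 295, 264, 503 and 492 CPM in INT, 390.0, 486, 449 and 495 CPM in SVX, 481, 392, 521 and 385 CPM in SVX_VAS and 193, 265, 253 and 510.0 CPM in VAS. The same INT pair, 1 and 2, was the lower one, and in VAS a single library, number 4, reached the level of the SVX libraries. The logFC was 2.39 in INT (SE 0.31, 95% interval 1.74 to 3.04, FDR 1.79e-05), 2.62 in SVX (FDR 5.51e-06), 2.59 in SVX_VAS (FDR 7.82e-06) and 2.04 in VAS (FDR 4.22e-05).

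Smo encodes the transmembrane signal transducer that PTCH1 holds back. It had the smallest change of the 9, from 85.8, 96.2 and 95.5 CPM at estrus to 127, 134, 174 and 141 CPM in INT. The values were 157, 146, 145 and 142 CPM in SVX and 138, 130, 152 and 143 CPM in SVX_VAS. In these groups all libraries lay above estrus, by a margin that is small beside the other members. The logFC was 0.64 in INT (SE 0.15, FDR 0.00197), 0.67 in SVX (FDR 0.000966) and 0.61 in SVX_VAS (FDR 0.0025), each close to the limit of 1.5-fold. The call did not hold in INT without INT library 3 (logFC 0.50, FDR 0.00947), nor in SVX_VAS without estrus library 1 (logFC 0.55) or SVX_VAS library 3 (logFC 0.57), and limma's TREAT against a 1.5-fold change called Smo in no group. In VAS the levels were 148, 92.4, 101 and 142 CPM and overlapped with estrus. The logFC there was 0.38 (95% interval 0.07 to 0.69, FDR 0.0338), which was under the limit and not called. The low values are those of VAS libraries 2 and 3, which stand apart from the rest as described below, and without them the logFC was 0.65 (FDR 0.000409) and the gene was called.

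Hhip encodes a decoy receptor at the cell surface that binds hedgehog ligand and limits its reach. It went from near the limit of detection, 0.119, 0.251 and 0.607 CPM at estrus, to 19.7, 7.81, 19.6 and 23.5 CPM in INT. It was at 16, 27.4, 22.7 and 22.1 CPM in SVX, 16.6, 35.1, 29.5 and 16.8 CPM in SVX_VAS and 10.1, 44.0, 21.2 and 23.3 CPM in VAS. No mated library came near the estrus range, and the mated libraries, from 7.81 to 44.0 CPM, had the widest relative range of the 9 genes. The logFC was 5.82 in INT (SE 0.65, 95% interval 4.45 to 7.19, FDR 6.36e-06), 6.14 in SVX (FDR 2.44e-06), 6.30 in SVX_VAS (FDR 3.04e-06) and 6.31 in VAS (FDR 3.09e-06). Estrus held only 2, 7 and 8 counts, or 17 in all, so the fold is imprecise. The ratio of summed counts to estrus was 59.5 in INT with an exact 95% interval of 37.0 to 102, and 86.8 in VAS with an interval of 54.0 to 149. Without estrus library 4 the logFC was 6.44 in INT, 6.76 in SVX, 6.91 in SVX_VAS and 6.92 in VAS. With TREAT Hhip was not called in any of the 4 groups (FDR 0.14 in INT, 0.0803 in SVX, 0.0845 in SVX_VAS and 0.0652 in VAS), nor in INT with limma-voom (FDR 0.0508).

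Gli1 encodes the GLI activator whose own transcription is the most used readout of hedgehog signalling. It was at 3.21, 5.24 and 7.28 CPM at estrus and at 101, 115, 197 and 185 CPM in INT. The other groups held 142, 174, 173 and 181 CPM (SVX), 174, 150.0, 194 and 158 CPM (SVX_VAS) and 84.4, 118, 114 and 183 CPM (VAS). Even the lowest mated library, VAS 1, lay far above the highest estrus library. The logFC was 4.84 in INT (SE 0.35, 95% interval 4.11 to 5.57, FDR 6.22e-07), 5.0 in SVX (FDR 3.12e-07), 5.02 in SVX_VAS (FDR 4.22e-07) and 4.58 in VAS (FDR 6.26e-07), the lowest FDR of the 9 members in each group.

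Gli2 and Gli3 encode the GLI factors that receive the signal first, GLI2 mainly as an activator and GLI3 mainly as a repressor in the absence of ligand. Gli2 went from 14.5, 23.9 and 17.5 CPM at estrus to 39.0, 43.0, 55.8 and 43.7 CPM in INT. Gli3 went from 14, 21.4 and 19.8 CPM to 54.6, 58.3, 90.2 and 71.1 CPM. In neither gene did an INT library overlap with estrus. Gli2 ranged from 41.6 to 53.0 CPM in SVX, from 33.9 to 61.7 CPM in SVX_VAS and from 46.9 to 61.4 CPM in VAS, and Gli3 from 70.3 to 82.2, from 63.5 to 80.5 and from 46.2 to 94.8 CPM. The logFC of Gli2 was 1.28 in INT (SE 0.21, FDR 0.000115), 1.36 in SVX (FDR 4.27e-05), 1.44 in SVX_VAS (FDR 3.56e-05) and 1.47 in VAS (FDR 2.87e-05). That of Gli3 was 1.90 in INT (SE 0.23, FDR 1.2e-05), 2.10 in SVX (FDR 3.34e-06), 1.98 in SVX_VAS (FDR 6.61e-06) and 2.07 in VAS (FDR 4.82e-06). The point estimate for Gli3 was above that for Gli2 in all 4 groups, a difference between genes that was not tested.

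Kif7 encodes a kinesin of the primary cilium that organises GLI at its tip. It went from 4.46, 6.43 and 4.93 CPM at estrus to 15.7, 18.3, 23.9 and 24.2 CPM in INT, and ranged from 19.7 to 24.2 CPM in SVX, 17.3 to 21.3 CPM in SVX_VAS and 15.8 to 28.6 CPM in VAS. Its libraries on day 3.5 pc all lay above estrus, at a low absolute level. The logFC was 1.96 in INT (SE 0.21, FDR 5.82e-06), 2.04 in SVX (FDR 2.23e-06), 1.86 in SVX_VAS (FDR 5.52e-06) and 2.19 in VAS (FDR 2.26e-06).

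Nr2f2 was abundant throughout, at 110.0, 141 and 132 CPM at estrus and 218, 243, 315 and 315 CPM in INT. It was at 275, 321, 351 and 351 CPM in SVX, 312, 279, 360.0 and 296 CPM in SVX_VAS and 187, 180.0, 184 and 343 CPM in VAS. The groups did not overlap with estrus, but 3 of the 4 VAS libraries lay below every other mated library. The logFC was 1.09 in INT (SE 0.21, FDR 0.000562), 1.35 in SVX (FDR 6.86e-05), 1.29 in SVX_VAS (FDR 0.000125) and 0.81 in VAS (FDR 0.00396). Without VAS library 4 the logFC in VAS was 0.53 (FDR 0.00781) and the call was lost, and without VAS libraries 2 and 3 it was 1.05 (FDR 0.00144). TREAT did not call Nr2f2 in INT (FDR 0.0641) or VAS (FDR 0.338).

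**Figure D2:**
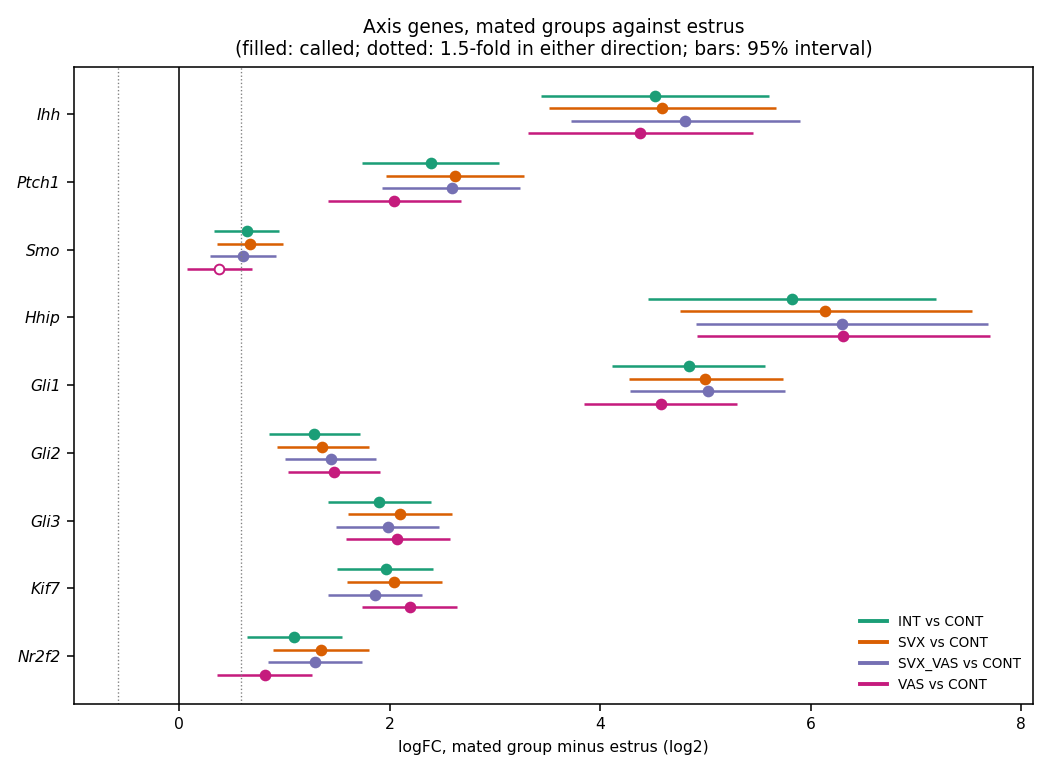
logFC of each axis gene in each mated group against estrus (log2, horizontal axis), with 95% intervals from the edgeR fit. Filled points were called, and the dotted lines mark a fold of 1.5. Hhip, Gli1 and Ihh lie between 4.38 and 6.31, the other genes between 0.38 and 2.62, and only Smo in VAS is open.

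The order of the levels per length of exon changed between estrus and day 3.5 pc. At estrus Smo was the highest at 16.5 ± 1.04 CPM per kb (SD, n = 3), next to Nr2f2 at 14.8 ± 1.83, whose libraries overlapped with those of Smo. Ptch1 followed at 8.46 ± 0.727 and stood apart from both neighbours. Gli2, Gli3, Gli1, Kif7 and Ihh came next, between 2.71 and 0.539 CPM per kb, and each overlapped with its neighbour in the order. Hhip was last at 0.0359 ± 0.0278. In INT the order was Ptch1 at 44.4 ± 14.5, Gli1 at 40.8 ± 13.3, Nr2f2 at 31.6 ± 5.77 and Smo at 25.6 ± 3.72 (SD, n = 4), neighbours among these 4 overlapping. Ihh followed, apart from Smo, at 11.8 ± 4.57, Gli3 at 7.15 ± 1.68 and Gli2 at 6.61 ± 1.05, which overlapped with their neighbours in that order, then Kif7 at 4.48 ± 0.911 and Hhip at 1.95 ± 0.751, which stood apart. The order of the means was the same in all 4 mated groups. Gli1 moved from rank 6 at estrus to rank 2, and Ihh from rank 8 to rank 5, while Hhip stayed the lowest.

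Between the mated groups, which asks whether the mate's seminal fluid or sperm made a difference, no member was called. Against INT, 0 of 9 genes were called in SVX, SVX_VAS and VAS, as were 0.0% of all genes in each comparison. At an unadjusted p under 0.05 the edgeR test also gave 0 of 9 members in each comparison, against 4.35% of all genes (749) in SVX, 1.97% (339) in SVX_VAS and 10.6% (1831) in VAS. DESeq2 and limma-voom called no member either. Over all genes DESeq2 called 3 lower in SVX, 1 higher and 1 lower in SVX_VAS and 0 in VAS, and limma-voom 0, 0 and, in VAS, 20 higher and 1643 lower. The count of 0 over all genes in VAS also rested on single libraries, with 110 called higher and 466 lower without VAS 1 and 8 higher and 126 lower without VAS 4. No member was among them.

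The intervals show how large a difference these libraries leave possible. For Ihh the logFC against INT was 0.07 in SVX (95% interval -0.72 to 0.85), 0.29 in SVX_VAS (-0.50 to 1.07) and -0.14 in VAS (-0.92 to 0.64). For Gli1 it was 0.16 (-0.38 to 0.70), 0.18 (-0.36 to 0.72) and -0.26 (-0.80 to 0.28), and for Ptch1 0.23 (-0.32 to 0.78), 0.19 (-0.36 to 0.75) and -0.35 (-0.90 to 0.20). A 1.5-fold change in at least one direction lay inside each of these 9 intervals. Smo was the most tightly measured, at 0.04 (-0.25 to 0.32), -0.03 (-0.32 to 0.25) and -0.26 (-0.54 to 0.03), all inside the limit, and its VAS value had the lowest p of the 27 (0.0744, FDR 0.452). Hhip was the least certain, with 0.48 (-0.41 to 1.37) in VAS. Gli2, Gli3 and Kif7 differed from INT by -0.10 to 0.23, and Nr2f2 by 0.25, 0.19 and -0.29. Without VAS libraries 2 and 3 the values of the members in VAS against INT lay between -0.17 and 0.11, with 0 of 9 called and 0.0% of all genes.

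**Figure D3:**
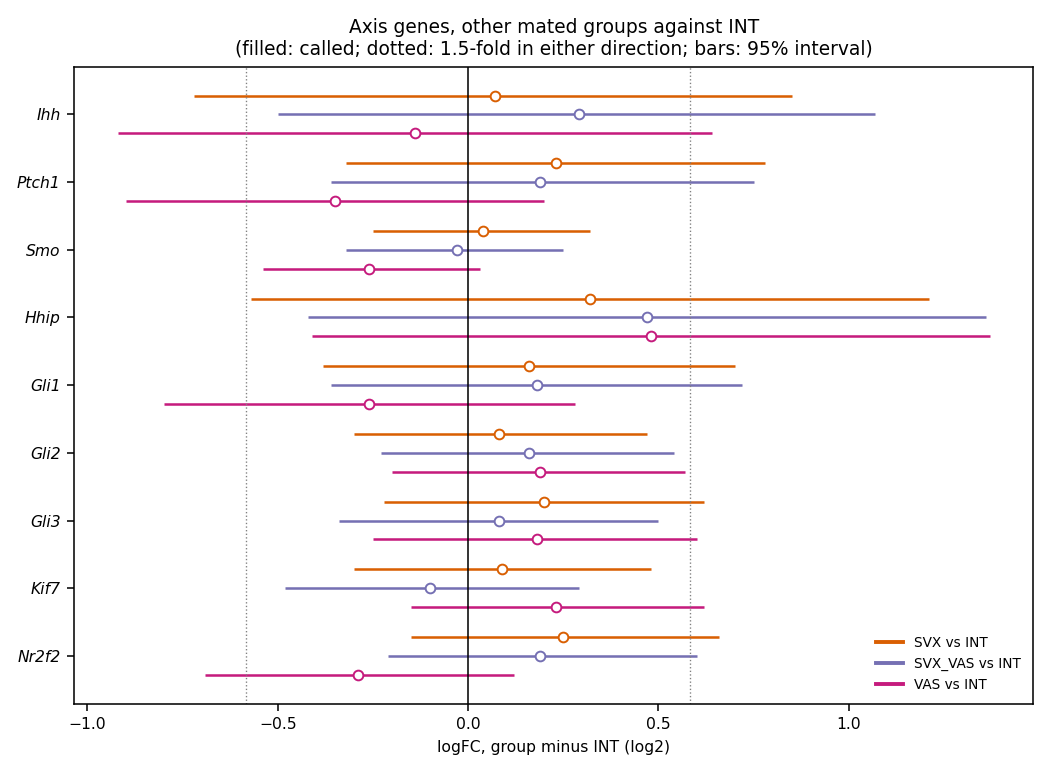
logFC of each axis gene in SVX, SVX_VAS and VAS against INT (log2, horizontal axis), with 95% intervals. All points are open (not called), all intervals include 0, and dotted lines mark a fold of 1.5 in either direction.

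The mated libraries differed in the level of the ligand gene. VAS 1, INT 1 and INT 2 had the 3 lowest Ihh levels of the 16 mated libraries, 18.7, 23.6 and 24.1 CPM. The same 3 libraries were the lowest for Gli3, at 46.2, 54.6 and 58.3 CPM. VAS 1 was among the 3 lowest mated libraries for 7 of the 9 genes, INT 1 for 6, and INT 2 and VAS 3 for 4 each. Leaving aside these 3 libraries and VAS 2 and 3, Ihh lay between 35.5 and 53.2 CPM in the other 11, Gli1 between 142 and 197 CPM and Ptch1 between 385 and 521 CPM. INT 1, INT 2 and VAS 1 also held more epithelial transcripts and, SVX_VAS 2 apart, more estrogen-response transcripts than the other 11. The summed level of 8 estrogen-response markers was 11300 CPM in INT 1, 4520 in INT 2 and 3680 in VAS 1, against 15000 to 17700 at estrus. The summed level of 7 epithelial markers was 2570, 2160 and 2280 CPM, against 614 to 1910 in the other 11. SVX_VAS 2 had 11000 CPM of estrogen-response markers beside 39.8 CPM of Ihh. The summed level of 5 endothelial markers was 403 to 578 CPM in the 3 libraries and 592 to 853 CPM in the other 11, with no overlap. That of the progesterone-response markers was 531 to 1400 against 1280 to 2610 CPM and that of the stromal markers 9760 to 11200 against 7730 to 10100 CPM, and both overlapped. VAS 2 and 3 were next in Ihh, at 33.6 and 32.7 CPM, with 114 to 118 CPM of Gli1 and 253 to 265 CPM of Ptch1. Their marker sums were 501 to 639 CPM for the epithelium, 695 to 1290 CPM for the estrogen response, both under those of INT 1, INT 2 and VAS 1, and 494 to 517 CPM for the endothelium. For the progesterone response their sums were 905 to 968 CPM, under the 1280 to 2610 CPM of the other 11. The part of these markers in the levels of the 9 genes was not tested.

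**Figure D4:**
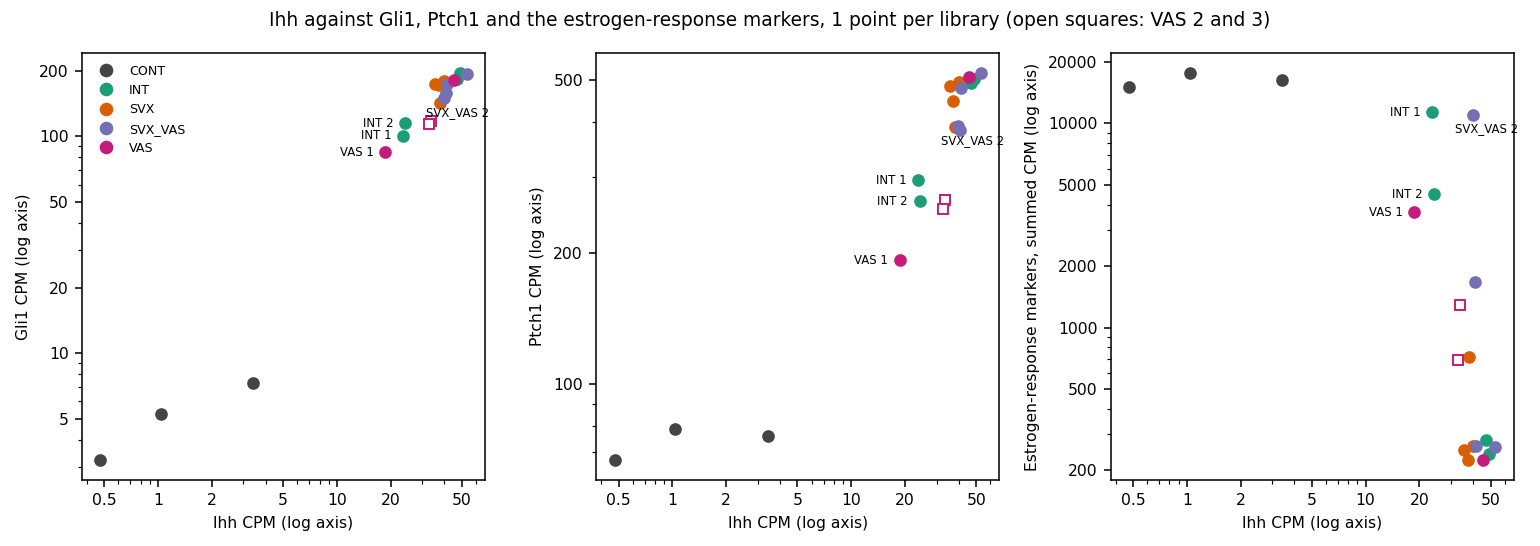
Ihh (CPM, log axis) against Gli1, Ptch1 and the summed level of the 8 estrogen-response markers (CPM, log axes), 1 point per library, with open squares for VAS libraries 2 and 3. INT 1, INT 2 and VAS 1 lie between the estrus libraries and the other 11 dots of mated libraries in Ihh, Gli1 and Ptch1, and SVX_VAS 2 lies apart from them in the third panel.

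Because the libraries fall into separate sets, INT 1, INT 2, VAS 1 and VAS 2 and 3 were left out, and SVX_VAS 2 was kept. Those left out held the lowest Ihh levels of the mated libraries, so the set depends on Ihh itself. The p-values do not allow for that choice. Correlations were tested only within the other 11 mated libraries. Over these, log2 CPM of Ihh and Gli1 had Pearson's r of 0.66 (permutation p = 0.0273, adjusted over 8 relations 0.218) and Spearman's rho of 0.80 (permutation p = 0.00449, adjusted 0.0359), two-sided. Without INT 3 and SVX_VAS 3, the libraries farthest from the median of Ihh, r was 0.43 (permutation p = 0.244) and rho 0.65 (permutation p = 0.0668) over 9 libraries, neither under 0.05. Centred by group, r was 0.62 (permutation p = 0.0548) and rho 0.53 (permutation p = 0.123) over 10 libraries. For Ptch1 r was 0.54 (permutation p = 0.088, adjusted 0.352) and rho 0.65 (permutation p = 0.0365, adjusted 0.146), and for the other 6 members r lay between 0.13 and 0.44. After adjustment over the 8 relations of each coefficient, the rank correlation with Gli1 was the only one of the 16 values under 0.05. No adjustment was made over all 16 together.

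Over all 16 mated libraries, and as a description with no test, the genes of the 17166 ranked whose log2 CPM followed Ihh most closely were Pknox2 (r = 0.955), Fads2 (0.945), Gabbr1 (0.945), Tmtc1 (0.934) and Kcnd3os (0.929). Gli1 was the next, at rank 6 (0.923), and Ptch1 was at rank 67 (0.872), whereas Smo was at rank 4615 (0.29). For Gli1 the closest were Zfyve21 (0.979), Ptch1 (0.972), Tle1 (0.971), Egfr (0.964) and Tmem198b (0.96). Without VAS libraries 2 and 3, Ihh and Gli1 had r of 0.952, and Gli1 and Nr2f2 0.965 in place of 0.913. Gli3 moved from rank 1268 (0.667) to rank 76 (0.946) for Gli1, and Kif7 from 0.395 to 0.828. For Ihh, Kcnd3os was then at rank 1 (0.974), Tmtc1 at rank 12 and Ptch1 at rank 19. All 16 points share the low libraries named above.

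The rest of the pathway was read from 52 other genes in 7 lists, of which 48 were tested. In INT 23 were called higher and 1 lower than at estrus, with a median logFC of 0.6 against -0.01 over all genes tested. These counts stand beside the 20.9% of all genes called higher and 12.7% called lower in INT. The counts were 24 and 3 in SVX, 25 and 3 in SVX_VAS and 23 and 2 in VAS, and in VAS 23 and 0 without VAS libraries 2 and 3. In that fit 22.1% of all genes were called higher and 14.2% lower, 33.2% had every library above estrus, and 9 of 9 members were called. None of the 48 was called in SVX, SVX_VAS or VAS against INT. In VAS against INT, Pgr, the progesterone receptor gene, and Csnk1a1, a casein kinase gene, both named after their values were seen, were called lower without VAS 1 (logFC -0.71 and -0.64, FDR 0.0455 for each, against -0.28 and -0.45 with all libraries), and Scube3 was with limma-voom (-1.23, FDR 0.0348). Without VAS libraries 2 and 3 these logFC were 0.18 for Pgr, which turned its direction, -0.05 for Csnk1a1 and -0.08 for Scube3 (FDR 1.0 for each). Of the genes named next, 7 were not called in INT with TREAT, the limma test against the fold limit itself: Disp2 (FDR 0.112), Scube2 (0.485), Scube3 (0.29), Gas1 (0.243), Sufu (0.112), Bmp4 (0.772) and Wnt4 (0.171).

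Of the other ligand genes, Shh had 0 counts in all 19 libraries, where a count of 0 allows up to 3 counts, or 0.227 CPM in the shallowest estrus library. Dhh, the desert hedgehog gene, was under the limit for testing, at 0.297, 0.646 and 0.834 CPM at estrus and 1.74, 1.70, 2.62 and 2.31 CPM in INT. Of 6 genes for the release of hedgehog ligand, 4 were called higher in INT and none lower (list median 1.11). Disp2, a relative of the exporter dispatched, had a logFC of 1.80 (SE 0.35, FDR 0.000605), and Scube2 and Scube3, secreted proteins that help carry the lipid-modified ligand, 1.46 (FDR 0.0268) and 1.2 (FDR 0.0257). Scube2 lost its call in INT when estrus library 1, estrus library 2 or INT library 4 was left out (logFC 1.21 to 1.43), and Scube3 when any of estrus 1, 2 and 4 or INT 3 and 4 was (1.09 to 1.23).

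Of 5 genes for co-receptors and other cell-surface binders of the ligand, 4 were called higher in INT and none lower, with a median logFC of 1.04. Gpc3, a cell-surface glypican that binds hedgehog, went from 3.33, 6.39 and 5.08 CPM at estrus to 36.1, 30.3, 55.6 and 59.9 CPM in INT. Again INT 1 and 2 were the lower pair, and no INT library came near estrus. Its logFC was 3.19 in INT (SE 0.34, FDR 5e-06) and 3.17 to 3.43 in the other mated groups, where it was also called. Lrp2, the endocytic receptor megalin, had a logFC of 4.63 (SE 0.51, FDR 6.22e-06). Gas1, a membrane-anchored co-receptor, had 1.04 (SE 0.27, FDR 0.00492).

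Of 13 genes for the processing and inhibition of GLI, 5 were called higher in INT and none lower, with a list median of 0.16. They include Gpr161, a ciliary receptor that restrains the pathway, at a logFC of 1.51 (SE 0.16, FDR 5.35e-06), Arrb2, a beta-arrestin, at 1.08 (FDR 5.13e-05), and Sufu, the cytoplasmic inhibitor of GLI, at 0.95 (SE 0.16, FDR 0.000177). Of 11 genes for ciliary transport, 6 were called higher and none lower, with a median of 0.66. Evc2 and Evc, whose products form a complex with SMO at the base of the cilium, had logFC of 2.43 (FDR 2.44e-06) and 2.37 (FDR 4.51e-06), and Dync2h1, the motor heavy chain of retrograde transport in the cilium, 1.45 (FDR 1.09e-05). Inhibitors and transmitters of the signal were thus among the genes that rose.

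Of 8 widely used GLI targets, 6 were tested, 3 were called higher in INT and none lower, with a median of 0.55. Foxf1, a forkhead factor of the mesenchyme, had a logFC of 2.84 (SE 0.32, FDR 6.49e-06), Ccnd2, the gene of cyclin D2, 1.71 (SE 0.17, FDR 3.32e-06) and Bmp4, named after its values were seen, 0.87 (FDR 0.0287). The call of Bmp4 was lost without estrus 1, INT 3 or INT 4 (logFC 0.66 to 0.84). Mycn, a gene of the MYC family, and Ccnd1, the gene of cyclin D1, are named after their values were seen. Mycn had 25 CPM on average in INT against 119 CPM at estrus (logFC -2.25, SE 1.12, FDR 0.111) and Ccnd1 103 against 185 CPM (logFC -0.85, SE 0.36, FDR 0.0618). Neither was called. Every INT library lay below every estrus library for both, but the share of all genes with that pattern was not counted. Ccnd1 was called lower in INT without VAS libraries 2 and 3 (FDR 0.0306), without INT 2 (logFC -0.99) and without VAS 1 (logFC -0.85). Mycn was called lower in SVX (logFC -4.22, FDR 0.00718) and SVX_VAS (-2.97, FDR 0.0377), and Ccnd1 in SVX (-1.01, FDR 0.0241) and SVX_VAS (-1.05, FDR 0.0211). The call of Mycn in SVX_VAS was lost without any of estrus 1, 2 and 4 and SVX_VAS 1, 3 and 4 (logFC -2.99 to -2.61), that of Ccnd1 in SVX without any of estrus 1 and 4 and SVX 2, 3 and 4 (-0.99 to -0.92), and that of Ccnd1 in SVX_VAS without estrus 1 or SVX_VAS 2 (-1.0 to -0.90). Foxf2 and Foxl1 were not tested, with 0 to 2 and 0 to 3 counts per library. Of 7 genes of the uterine progesterone circuit around Ihh, 1 was called higher and 1 lower in INT. Hand2, a stromal factor induced by progesterone that restrains epithelial growth, had a logFC of 2.27 (SE 0.39, FDR 0.000216). Opposite-strand exons overlap 23.4% of the exon length of Ccnd1, 18.8% of Hand2 and at most 7.86% (Ccnd2) of others named here. Reads of these stretches may belong to either gene. Wnt4, a ligand gene of the stroma at decidualisation, had 12.8 CPM on average in INT against 33.5 CPM at estrus, a logFC of -1.38 (SE 0.55, FDR 0.0462), and lost its call when any of 12 of the 19 libraries was left out, estrus 1, 2 and 4 and INT 2, 3 and 4 among them (logFC -1.50 to -1.15).

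**Figure D5:**
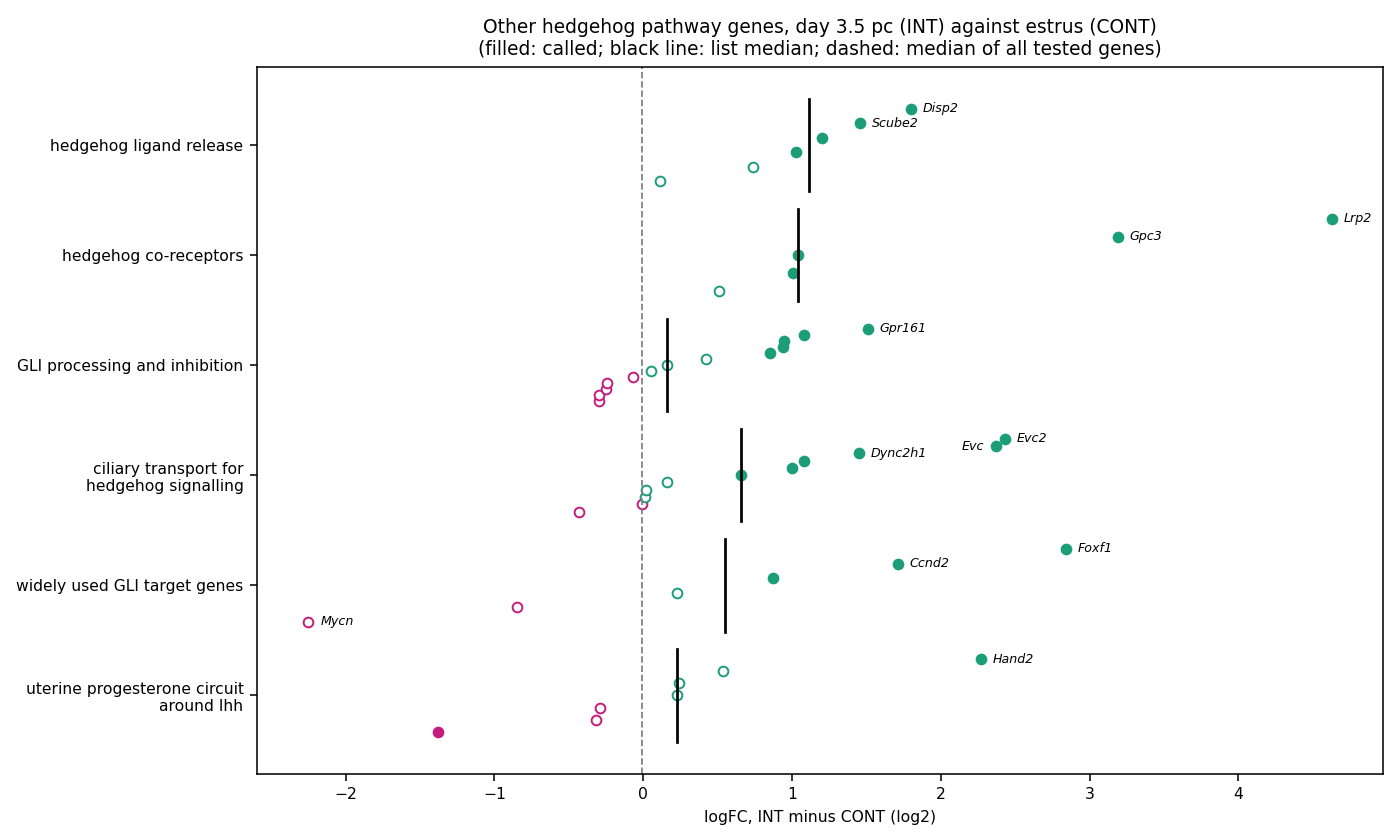
logFC in INT against estrus (log2, horizontal axis) of the 48 tested genes of 6 hedgehog lists other than the 9 members, 1 point per gene. Filled points were called, black lines are list medians and the dashed line is the median of all genes tested, -0.01. The list of ligand release has the highest median, 1.11, and the list of GLI processing the lowest, 0.16.

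Library totals ranged from 12661266 to 31781270 counts. VAS libraries 2 and 3 stood apart: Malat1, a nuclear RNA, made up 0.0703% and 0.0723% of their counts against 0.724% to 1.41% in the others, their median correlation with the other libraries was 0.751 and 0.77 against 0.809 to 0.976, and their stromal marker sum was 2340 and 2550 CPM against 7730 to 11200 in the other mated libraries. Of 10 stromal markers 6 were called higher in INT than at estrus, as were 5 of 5 endothelial, 5 of 6 immune and 4 of 6 gland markers and 6 of 7 markers of the epithelial progesterone response (of which Lrp2 and Gata2 also stand in the lists above). Of 7 epithelial markers 5 were called lower, of 8 estrogen-response markers 1 was, and 1 of 6 smooth muscle, 1 of 4 mesothelial and 0 of 7 proliferation markers were called higher. Over all genes tested 20.9% were called higher and 12.7% lower. In SVX 7 of 7 epithelial and 8 of 8 estrogen-response markers were called lower, and in SVX_VAS and in VAS 6 of 7 and 3 of 8, beside the 18.5%, 16.5% and 17.3% of all genes called lower. Stromal markers called higher numbered 6, 6 and 4 of 10 in SVX, SVX_VAS and VAS, endothelial 5 of 5 in each, and progesterone-response 6, 5 and 6 of 7. Differences between the mated groups in these counts were not tested. No marker was at 0 in all libraries. The summed level of the epithelial markers was 3930 to 5400 CPM at estrus and 614 to 2570 CPM in INT, that of the stromal markers 6470 to 6920 and 8600 to 11200 CPM, and that of the progesterone-response markers 165 to 176 and 1230 to 2460 CPM. Most of this last sum in INT was Lrp2, which alone was at 43.2 to 65.0 CPM at estrus and 943 to 2180 CPM in INT. The part of these shifts in the changes of the 9 genes was not tested, and in RNA of whole endometrium more cells of a type and more RNA per cell cannot be told apart.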

How the data were processed

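The authors deposited raw counts per gene for 19 libraries. By the study's methods, a TruSeq Stranded total RNA kit and paired-end sequencing were used, followed by adapter trimming, alignment to GRCm38 by STAR and counting by featureCounts, and the labels' processing notes also name FastQC, limma and edgeR. Any step before the counts, such as how reads shared by genes were treated, is fixed in them. Symbols were found for 48349 of the 49089 genes, and 0 columns of values were left without a sample.

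The filter asked for 3 CPM or more in 3 or more of the 19 libraries. The fit used edgeR 4.0.16 under R 4.3.3, with TMM scaling, glmQLFit, glmQLFTest, all 5 groups and no replicate block. CPM use the TMM factors, log2 CPM a prior count of 2. Levels per length divide CPM by exon length. Correlations used 100000 permutations. On simulated counts for INT against estrus over 17222 genes, the fit recovered 47 of 100 genes changed 2-fold and 80 of 100 changed 4-fold, with 0 false calls. A count of 0 was read as up to 3 counts, which, like the counting intervals, covers counting error only.

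The members, gene lists and tests were chosen with earlier results of these data known. Named outside the members were the genes called in INT against estrus among the 3 of each list with the largest logFC in size, the genes under the filter, and the 5 genes closest to Ihh and to Gli1. Bmp4, Mycn and Ccnd1 were named after their values were seen. Alternatives were DESeq2's size factors, upper quartile factors, DESeq2 1.42.0, limma-voom (limma 3.58.1) with and without TREAT, other filters, the compared groups alone, a replicate block and each library left out in turn. Leaving out VAS libraries 2 and 3 was chosen after seeing the data. No 2 libraries of a group were alike within sampling noise (lowest chi-square per gene 3.12 over 27 pairs). Promoters are RefSeq's (GRCm38.p6). Figures were drawn with Python 3.11.15 and matplotlib 3.10.9. Protein sequences were not analysed here, and 1 gene was left out of the lists and of all counts over them and is not reported here.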

Additional observations from a re-analysis of the deposited data

Results flagged for a closer look

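In groups of 4 libraries, 1 library was set far from the other 3 by Dixon's test (a gap of over 0.829 of the range) in 8 of the 76 groups of values searched, where chance gives about 3.8. Of the axis genes, Ihh was high in SVX_VAS 3 (53.2 CPM against 39.8 to 41.3), Gli3 was low in SVX 1 (70.3 CPM against 80.3 to 82.2) and Nr2f2 was high in VAS 4 (343 CPM against 180.0 to 187). The other 5 were summed levels of markers. The epithelial markers were high in VAS 1 (2280 CPM against 501 to 733), the gland markers in INT 3 (469 CPM against 111 to 127) and the progesterone-response markers in INT 4 (2460 CPM against 1230 to 1400). Among the progesterone-response markers, Lrp2 had 31136 counts in INT 4 against 16074 to 16539 in the other INT libraries. The estrogen-response markers were high in SVX 1 (718 CPM against 224 to 264) and in SVX_VAS 2 (11000 CPM against 260 to 1680). For Nr2f2, the other 3 VAS libraries include numbers 2 and 3, which stand apart in the whole transcriptome.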

How the results depend on the processing

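The number of members called was within 1.5 times of the reported one under all alternatives run in all 7 comparisons (at the lowest 6 of 9 against estrus, with TREAT in INT and in VAS), and no member's logFC against estrus changed sign. Of all 17222 genes, TREAT called 1483 higher and 830 lower in INT, against 3599 and 2192 in the reported fit. Of 261 member values per comparison, the call stayed the same in 256 (INT), 259 (SVX), 255 (SVX_VAS) and 257 (VAS) against estrus, and in all 261 of each comparison with INT. The calls lost were those of Smo, Hhip and Nr2f2, and the 1 gained was that of Smo in VAS without VAS 2 and 3. Besides the single libraries named above, Smo was not called with TREAT in INT (FDR 1.0), SVX (0.636) and SVX_VAS (0.982), nor in SVX_VAS with a filter of 1 CPM (logFC 0.56) or none (0.58). With 1 library left out, the logFC in INT ranged from 4.09 to 5.49 for Ihh, 2.22 to 2.54 for Ptch1, 4.59 to 5.12 for Gli1 and 0.50 to 0.69 for Smo. Upper quartile factors moved the median logFC of all genes to 0.12, 0.16, 0.13 and 0.13 in INT, SVX, SVX_VAS and VAS (from -0.01, -0.01, -0.02 and -0.07) and the calls in VAS from 4006 higher and 2979 lower to 4955 and 2077, with 9, 9, 9 and 8 members called higher. The replicate block left 9, 9, 9 and 8 members called against estrus and 0 against INT. Shared numbers did not pair the libraries (15 of 36 same-numbered pairs with r over 0.1, median 0.0469, and 4 libraries closest to their own number). Few counts limit the precision of Hhip and Ihh at estrus, with 17 and 82 in all. The cause of these differences was not tested.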
